A study of Mus musculus with 22 samples.

Results

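The 9 genes described here bind, take up, make, break down or sense retinoids, the vitamin A compounds: Rbp4, Stra6, Crabp1, Crabp2, Aldh1a1, Aldh1a2, Aldh1a3, Cyp26b1 and Rarb. They are 9 of the 18193 mouse genes that the array names by a single symbol. Genes were chosen by symbol, and each is represented by its probe set (a group of short probes read as 1 value), selected on the highest mean signal over the 22 arrays. Measured values decided only for Aldh1a3, which has 3 probe sets, since the other 8 genes have 1 each. The list is one of function, but it was drawn up with results of these arrays known, so how many of its genes changed is a description of the list.

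RNA was measured on 22 Affymetrix Mouse Genome 430 2.0 arrays from male C57BL/6 mice, 14 of cultured cells and 8 of aorta. The cells were smooth muscle cells of the suprarenal aorta, all from tenascin C knockout (TNC-KO) mice. Tenascin C (TNC) is a matrix glycoprotein of injured and loaded arteries. The cells received exogenous TNC (10 µg/mL) with TNF-alpha (TNF, 10 ng/mL; 4 arrays), TNC alone (4 arrays), TNF alone (3 arrays) or neither (3 arrays). The series text gives 24 h of TNF and counts 3 independent cultures without TNC and 4 with it. It does not say whether the cultures came from separate mice, so p-values measure the spread between these cultures. If the cultures with and without TNC are different ones, a TNC change cannot be told apart from a difference between the 2 sets. For aorta, RNA of several mice was pooled and put on a single array per genotype (TNC-KO or wild type, WT), treatment and segment. Treated mice had 0.5 M CaCl2 laid around the infrarenal aorta and angiotensin II infused at 1 µg/min/kg for 1 week (Ca+AngII, 8 mice a pool), and control mice had neither (5 mice a pool). The suprarenal and infrarenal segments are the 10 mm above and below the renal arteries. With 1 pool a group the aortic values carry no error and no test, and in tissue, fewer cells of a type and less RNA per cell cannot be told apart.

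The labels were checked first. Tnc signal was 257 to 489 in the 4 TNC-KO pools, against 1805 to 2699 in the 4 WT pools, and it was 66.3 to 144 in the cells. A second, dimmer Tnc probe set overlapped between genotypes, at 99.1 to 242 in TNC-KO pools, against 151 to 345 in WT pools. The cells carried the smooth muscle transcripts Acta2 and Tagln at 15303.9 to 23322.4 and 7351 to 14268. The contractile marker Myh11 was only 27.9 to 407, against 8638 to 18978 in aorta, and Cnn1 was 30.5 to 1572. Myocd was 1.53 to 71.7 and Des 23.4 to 177, against 187 to 1635 and 574 to 1798 in aorta. Between 4 and 8 of 8 smooth muscle markers were at or above the median of their array. Endothelial markers of the cells went both ways against aorta. Emcn was 9298 to 14206 in cells, against 1111 to 2519 in aorta, and Pecam1 was 3097 to 5065, against 1555 to 3974. Cdh5 was 1629 to 2472, against 676 to 1502, and Tie1 was 299 to 478, against 233 to 410. Vwf was 624 to 1913, against 1306 to 6473, and Tek was 164 to 272, against 891 to 2348. Kdr was 44.5 to 98.1, against 521 to 878, and Cldn5 was 3.72 to 42.0, against 885 to 1436. The sum of 8 endothelial markers was 16459 to 21791 in the cells, against 7179 to 18548 in the pools. Most of the sum in the cells is Emcn. In the pools, transcripts of steroid-making adrenal cortex stood apart in 2 of 8. Their summed signal was 5882 in the infrarenal TNC-KO control pool and 3094 in the suprarenal WT Ca+AngII pool, against 380 to 833 in the other 6. The infrarenal TNC-KO control pool also had the highest summed signal of mesothelial markers, 2109 against 680 to 1022 elsewhere. Sums of sympathetic neuron transcripts were 56613 to 73231 in suprarenal pools, against 7177 to 15348 in infrarenal pools. Over all probe sets the median signal was 51.0 to 64.6 in cells and 119 to 134.5 in aorta.

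Retinol travels in blood on retinol binding protein, which Rbp4 encodes, and the membrane receptor STRA6 lets it into cells. Alcohol and short-chain dehydrogenases turn retinol into retinal. Retinaldehyde dehydrogenases, the products of Aldh1a1, Aldh1a2 and Aldh1a3, then make retinoic acid. CRABP1 and CRABP2 bind retinoic acid in the cytosol, CYP26B1 oxidises it for removal, and RAR-beta, the product of Rarb, is one of the nuclear receptors it activates. Retinoic acid is known to promote the contractile state of vascular smooth muscle, and fat tissue and liver are known sources of RBP4.

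Retinoic acid receptors bind pairs of hexamers set as direct repeats, whose searched forms were AGGTCA, then AGTTCA, then GGGTCA, and also GGTTCA, and the Rarb promoter is the textbook case. RefSeq promoter sequences of build GRCm38.p6 were available for 7 of the 9 genes, in 12 windows of 300 bases (250 before and 50 after a start). They are shown because the 9 genes both make and answer to the same ligand. The 4 hexamers were searched on both strands, without regard to overlap with other motifs. At least 1 of them was found in 4 of the 12 windows, 1 each of Rarb, Aldh1a1, Rbp4 and Stra6, and in 43.7% of all 32851 promoter windows. Direct repeats of any 2 of them were searched at spacings of 1, 2 and 5 bases. Spacings of 1 and 2 were found in no member window, and in 0.222% and 0.268% of all windows. A direct repeat spaced by 5 bases was found in 1 member window, that of Rarb, and in 0.0974% of all windows (32 of 32851). It lies at -53 to -37 from the start, and capitals mark every hexamer found in the stretch shown, chr14:16575483-16575579 on the minus strand.
Rarb: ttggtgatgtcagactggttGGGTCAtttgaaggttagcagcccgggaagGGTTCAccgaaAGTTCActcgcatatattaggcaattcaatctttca
The other 3 windows hold a lone hexamer (capitals), shown as TGACCC for Aldh1a1 and Rbp4, where GGGTCA lies on the opposite strand. The stretches are chr19:20601899-20601944 (plus strand), chr19:38125349-38125394 (minus strand) and chr9:58134070-58134115 (plus strand).
Aldh1a1: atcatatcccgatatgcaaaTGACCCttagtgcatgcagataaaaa
Rbp4: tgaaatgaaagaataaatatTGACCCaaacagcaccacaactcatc
Stra6: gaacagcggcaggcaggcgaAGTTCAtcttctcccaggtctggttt
A match describes letters in a window and is not a measured binding site.

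In the cells, the genes for making and breaking down retinoic acid fell with TNF, and the receptor gene Rarb was not called in that comparison. Aldh1a1, Aldh1a2 and Cyp26b1 were lower with TNF and lower with TNC, each without and with the other factor. Aldh1a3 was the synthesis gene that went its own way: it was higher with TNC alone and lower with TNC and TNF together. Its call for TNC alone rests on the brightest of its probe sets. Rarb was higher in cells given TNC and TNF than in cells given TNF alone. Cell values were compared with limma on the log2 scale, and a gene was called at a Benjamini-Hochberg adjusted p under 0.05 over 15534 genes, those at or above the 30th percentile of an array in at least 3 arrays. All adjusted p-values below are limma's, and errors of log2 changes are standard errors (SE). Of the 9 genes, 8 were tested. Crabp1 was too dim, at or above the 30th percentile on 1 of 14 arrays.

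Against untreated cells, TNF alone lowered 5 of the 8 genes and raised 0, while 34.6% of all genes were called (20.3% lower, 14.3% higher). Among cells with TNC, TNF lowered 4 and raised 0, where 22.1% of all genes were called (12.5% lower, 9.60% higher). TNC alone lowered 3 and raised 2, where 31.8% were called (15.7% lower, 16.1% higher). Among cells with TNF, TNC lowered 4 and raised 2, where 28.2% were called (11.9% lower, 16.3% higher). The interaction, which is the TNF change with TNC minus that without it, was called for 2 of the 8, 1 positive and 1 negative, where 18.8% of all genes were called (9.81% positive, 9.01% negative). Counted by arrays that do not overlap, 6 of the 8 were lower with TNF alone, as were 29.5% of all genes, and 0 higher, against 20.5%. With TNF on top of TNC, 4 were lower and 0 higher, against 13.3% and 10.0% of all genes. With TNC alone, 3 were lower and 2 higher, against 20.9% and 19.8%, and with TNC on top of TNF, 3 were lower and 2 higher, against 16.1% and 20%. The median log2 change of the 8 genes was -0.90 and -0.82 for TNF without and with TNC, against -0.06 and -0.01 over all genes. For TNC without and with TNF it was -0.02 and -0.03, against -0.03 and 0.00. The direction of calls over all genes moves with the scaling. The higher share of calls was 41.2%, 43.5%, 50.7%, 57.8% and 52.1% in the order of the contrasts above, and 57.4%, 53.3%, 76.2%, 74.2% and 39.0% after centring on array medians, which put the median change of all genes at 0.05, 0.02, 0.14, 0.10 and -0.03. The same 5 contrasts share cells, so their calls are not independent.

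**Figure D1:**
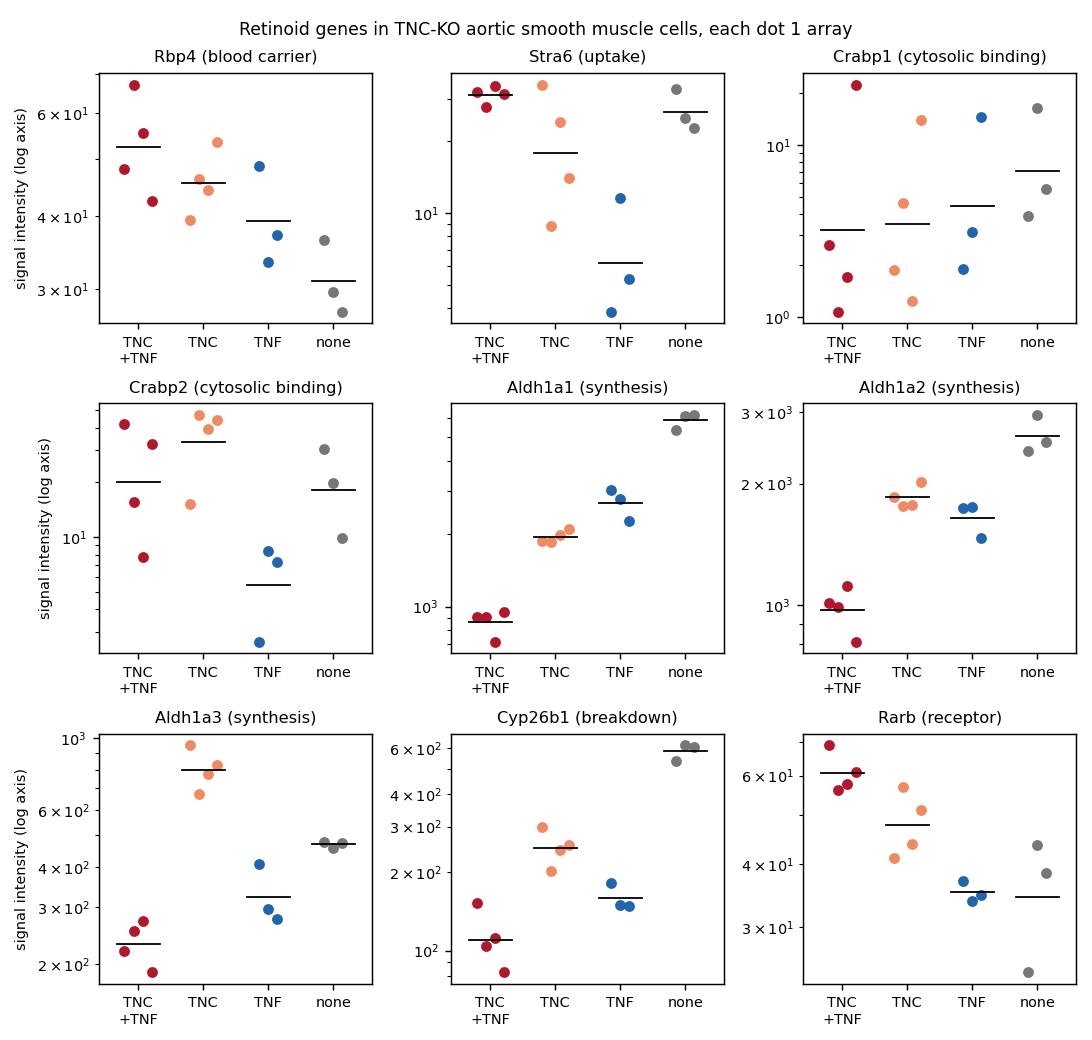
Signal of the 9 retinoid genes in the 14 cell arrays (log axis, each panel with its own range), 1 dot an array and a line at the geometric mean of its group. Groups run left to right as TNC with TNF (n = 4), TNC (n = 4), TNF (n = 3) and untreated (n = 3); Aldh1a1 falls in steps, with untreated cells at 5364 to 6188 and cells given both factors at 714 to 949, while Aldh1a3 is highest with TNC alone, at 673 to 954.

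Aldh1a1, the most widely expressed retinaldehyde dehydrogenase, showed the largest fall with TNC among the 3 synthesis genes. Its signal was 904, 911, 714 and 949 with TNC and TNF, 1862, 1841, 1971 and 2086 with TNC, 3040, 2788 and 2250 with TNF, and 5364, 6119 and 6188 in untreated cells. The 4 groups did not overlap, in that order from lowest to highest. TNC alone changed it by -1.60 on the log2 scale (SE 0.12, adjusted p = 2.03e-06), 3.03-fold lower, and TNF alone by -1.14 (SE 0.13, adjusted p = 3.09e-05), 2.20-fold lower. The changes with the other factor present were close to these, -1.63 for TNC (adjusted p = 2.79e-06) and -1.16 for TNF (adjusted p = 2.1e-05). The interaction was -0.03 (95% interval -0.40 to 0.34, adjusted p = 0.94). The mouse has a near-identical copy of this gene, Aldh1a7, and how far the probes tell the pair apart was not tested.

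Aldh1a2, the main retinaldehyde dehydrogenase of the embryo, followed the same order at the ends. Its signal was 1011, 990, 1113 and 810 with TNC and TNF, 1853, 1763, 1773 and 2018 with TNC, 1740, 1747 and 1469 with TNF, and 2410, 2959 and 2534 in untreated cells. Cells given both factors lay below all others and untreated cells above all others, and the groups given 1 factor lay between and next to each other. TNF lowered it by 0.67 without TNC (SE 0.12, adjusted p = 0.00108) and by 0.92 with TNC (SE 0.10, adjusted p = 8.5e-05). TNC lowered it by 0.51 without TNF (SE 0.11, adjusted p = 0.00548) and by 0.76 with TNF (SE 0.11, adjusted p = 0.000531). The call for TNC alone was lost when arrays were centred on their medians (-0.33, adjusted p = 0.0762). The interaction was -0.25 (95% interval -0.60 to 0.10, adjusted p = 0.329).

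Aldh1a3, the retinaldehyde dehydrogenase of several epithelia, was the 1 synthesis gene that rose with TNC. Its signal was 218, 252, 271 and 188 with TNC and TNF, 954, 673, 774 and 826 with TNC, 407, 296 and 276 with TNF, and 476, 458 and 473 in untreated cells. Cells with TNC alone stood above all other arrays, and cells with both factors below all others. TNC alone raised it by 0.77 (SE 0.16, adjusted p = 0.0036), while TNF lowered it by 1.80 in cells with TNC (SE 0.15, adjusted p = 7.58e-06), or 3.48-fold. TNF alone lowered it by 0.54 (SE 0.17, adjusted p = 0.0291) and TNC lowered it by 0.48 in cells with TNF (SE 0.16, adjusted p = 0.0441). These last calls were lost when any 1 of 5 and of 10 of the 14 arrays was left out. The call for TNF alone was also lost with arrays centred on their medians (-0.43, adjusted p = 0.121). The interaction was -1.25 (SE 0.23, adjusted p = 0.00274).

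The other probe sets of Aldh1a3 were dimmer and bear on that contrast. The second had 33.3 to 59.4 with TNC and TNF, 77.4 to 153 with TNC, 41.2 to 50.4 with TNF and 81.0 to 83.8 in untreated cells. The third had 16.4 to 52.1, 92.6 to 108, 21.2 to 59.9 and 62.8 to 73.8 in the same groups. With TNC present, TNF lowered all 3 probe sets (-1.37, adjusted p = 0.001, for the second and -1.52, adjusted p = 0.0116, for the third). The rise with TNC alone was 0.39 (adjusted p = 0.246) and 0.56 (adjusted p = 0.323) on the dimmer probe sets, and the interaction was -0.49 (adjusted p = 0.37) and -0.51 (adjusted p = 0.6). Those calls therefore rest on the brightest probe set. Of its 5 calls, counting the interaction, 2 held on the second probe set, 1 on the third and 3 on the mean of all 3.

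Cyp26b1, which clears retinoic acid, was lower with TNF alone by more than the synthesis genes were. Its signal was 152, 104, 111 and 82.4 with TNC and TNF, 299.7, 203, 243 and 255 with TNC, 182, 149 and 149 with TNF, and 537, 618 and 606 in untreated cells. Untreated cells lay above all others, and the array with TNC and TNF at 152 overlapped those with TNF alone. TNF alone lowered it by 1.88 (SE 0.20, adjusted p = 1.92e-05), or 3.68-fold, and TNC alone by 1.24 (SE 0.19, adjusted p = 0.000398). In cells with TNC, TNF lowered it by 1.18 (SE 0.17, adjusted p = 0.000508). The change with TNC in cells with TNF was -0.54 (SE 0.19, adjusted p = 0.0497), a call lost when any 1 of 11 of the 14 arrays was left out, with adjusted p of 0.00827 to 0.166. The interaction was 0.70 (SE 0.26, adjusted p = 0.0893). Aldh1a1, Aldh1a2 and Cyp26b1 are thus the 3 genes of the list called lower in all 4 pairs of groups, as were 302 of the 15534 genes tested (1.94%).

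Rarb, itself induced by retinoic acid in many cells, was dim and was called in 1 comparison. Its signal was 69.0, 56.0, 57.8 and 61.1 with TNC and TNF, 41.2, 56.9, 44.0 and 51.2 with TNC, 37.1, 33.8 and 34.8 with TNF, and 24.5, 43.6 and 38.5 in untreated cells. The arrays with TNC and TNF lay above every array with TNF alone and every untreated array. In cells with TNF, TNC raised Rarb by 0.79 (SE 0.18, adjusted p = 0.00651). With 32 added to each signal this was 0.47 (adjusted p = 0.00363), and the signals lie in the background range. The change with TNC alone was 0.47 (SE 0.18, adjusted p = 0.0628), and the changes with TNF were 0.03 without TNC (adjusted p = 0.933) and 0.34 with TNC (adjusted p = 0.172). With arrays centred on their medians, the change with TNC alone was called (0.65, adjusted p = 0.0254).

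Rbp4 and Stra6, the genes of retinol carriage and uptake, were near the floor of the array in cells. Rbp4 lay at the 34.3 to 53.4 percentile, with 48.0, 67.1, 55.5 and 42.4 with TNC and TNF, 39.4, 46.2, 44.4 and 53.5 with TNC, 48.6, 33.4 and 37.1 with TNF, and 36.4, 29.6 and 27.4 in untreated cells. Every array with TNC alone lay above every untreated one. TNC alone raised it by 0.56 (SE 0.18, adjusted p = 0.0326), a call lost when any 1 of 5 arrays was left out (adjusted p up to 0.119). Stra6 lay at the 10.5 to 41.5 percentile, with 32.0, 27.8, 34.0 and 31.4 with TNC and TNF, 34.4, 8.85, 23.9 and 13.98 with TNC, 3.85, 11.6 and 5.31 with TNF, and 33.1, 24.9 and 22.6 in untreated cells. The 3 arrays with TNF alone were below every untreated array and every array with both factors. TNF alone lowered Stra6 by 2.10 (SE 0.47, adjusted p = 0.00475), TNC raised it by 2.34 in cells with TNF (SE 0.44, adjusted p = 0.00244), and the interaction was 2.91 (SE 0.63, adjusted p = 0.00764). With 32 added to every signal these were -0.60, 0.71 and 0.90, with adjusted p of 0.00677, 0.0022 and 0.00621. All of these values lie in a range where an array reads mostly background.

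The cytosolic binding proteins gave no call in the fit used throughout. Crabp2 had 41.8, 15.7, 7.80 and 32.4 with TNC and TNF, 15.1, 47.0, 39.5 and 44.1 with TNC, 2.65, 8.42 and 7.26 with TNF, and 30.4, 19.8 and 9.93 in untreated cells. Its arrays with TNF alone lay below every untreated array, with a log2 change of -1.74 (SE 0.71, adjusted p = 0.0804), and its change with TNC in cells with TNF was 1.89 (SE 0.66, adjusted p = 0.0528). This change passed with median centring (adjusted p = 0.0424), quantile normalization (0.0313) and a variance trend (0.0453), and without TNC replicate 1 or TNC with TNF replicate 3, and its adjusted p was 0.1 with 32 added to each signal. Crabp1 ranged from 1.08 to 22.4 over the 14 arrays.

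**Figure D2:**
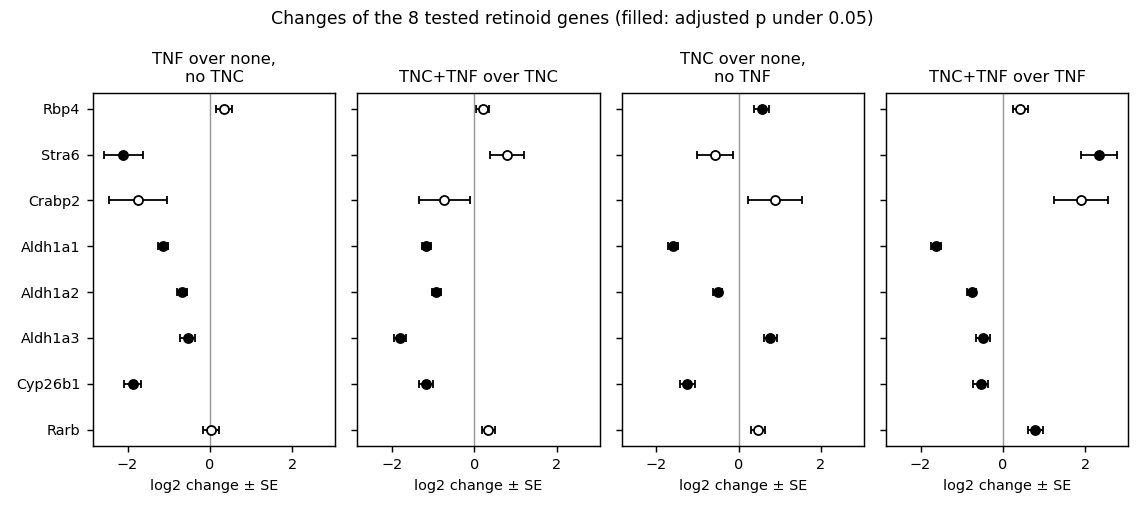
Log2 changes of the 8 tested retinoid genes in 4 comparisons of cell groups, with bars of 1 SE; filled points passed an adjusted p of 0.05. The points of Aldh1a1, Aldh1a2 and Cyp26b1 are filled and left of 0 in all 4 panels, Aldh1a3 is right of 0 only for TNC alone (0.77), and Rarb is filled only for TNC among cells with TNF (0.79).

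Markers of other cell types moved with these groups. The summed signal of 8 smooth muscle markers was 24109 to 27175 with TNC and TNF, 32092 to 35261 with TNC, 23628 to 25668 with TNF, and 40165 to 41745 in untreated cells. That of 8 fibroblast markers was 29186 to 31720, 26344 to 29002, 25523 to 26567 and 12864 to 14016 in the same groups. The sum of 9 mesothelial markers was 1452 to 1521, 2838 to 3313, 2135 to 2245 and 5125 to 6117. Nearly all of the last sum is Gpm6a, at 1327 to 5869. Msln, Upk3b, Wt1 and Bnc1 were at or under 29.0 on every array, Lrrn4 was 3.86 to 30.5 and Upk1b 7.37 to 109. Krt19 was 5.85 to 14.3, 14.4 to 29.3, 6.07 to 11.8 and 38.6 to 70.1 in the same groups. Krt8 was 5.56 to 36.1, 20.9 to 68.4, 2.83 to 30.7 and 48.6 to 62.5. The sum of 11 fat cell markers was 7744 to 8292, 13431 to 15252, 3797 to 4503 and 11373 to 14814. Most of it is Fabp4 and Lpl, at 1307 to 8420 and 1389 to 6521. Pparg was 194 to 848, Adipoq 16.2 to 234 and Slc2a4 13.4 to 141, and Retn, Lep, Cidec, Cidea and Ucp1 were at or under 44.7. Dio2 was lowest in untreated cells, at 119 to 158. It was 616 to 827 with TNC and TNF, 677 to 953 with TNC and 401 to 638 with TNF. Most of the fibroblast sum is Dcn and Pdgfra, while the fibroblast marker Cd34 was 1230 to 1346 with TNC and TNF, 1127 to 1497 with TNC, 1454 to 1712 with TNF, and 2486 to 2650 in untreated cells. The endothelial sum was 16459 to 18053, 20217 to 21791, 17094 to 18238 and 18652 to 21221 in the 4 groups. The part of these shifts in the retinoid genes was not tested.

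Other genes of the pathway, from a list of 45 of which 42 are on the array and 31 were tested, changed in both directions. TNF alone lowered 10 and raised 3, TNF in cells with TNC lowered 6 and raised 4, TNC alone lowered 7 and raised 6, and TNC in cells with TNF lowered 4 and raised 10. Their median log2 change was -0.14, 0.00, -0.04 and 0.12, against -0.06, -0.01, -0.03 and 0.00 over all genes. Among 16 tested genes of 24 known to respond to retinoic acid, TNF alone lowered 6 and raised 2, TNF in cells with TNC lowered 4 and raised 0, TNC alone lowered 6 and raised 4, and TNC in cells with TNF lowered 3 and raised 3. Their median log2 change was -0.46, -0.20, -0.24 and -0.09, and the shares of all genes called lower were 20.3%, 12.5%, 15.7% and 11.9%, and higher 14.3%, 9.60%, 16.1% and 16.3%. The interaction was positive for 5 and negative for 2 of the 31 pathway genes, and for 2 and 2 of the 16 response genes. Of all genes 9.81% were called positive and 9.01% negative. Some genes are on both lists.

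Dhrs3, which turns retinal back into retinol and is induced by retinoic acid, had a large interaction. Its signal was 580, 687, 589 and 546 with TNC and TNF, 543, 508, 549 and 599 with TNC, 165, 175 and 119 with TNF, and 1066, 799 and 907 in untreated cells. Cells with TNF alone stood below all others, and those with TNC had similar values with and without TNF. TNF alone lowered it by 2.60 (SE 0.15, adjusted p = 1.41e-07), the change with TNF in cells with TNC was 0.12 (adjusted p = 0.569), and the interaction was 2.73 (SE 0.20, adjusted p = 4.26e-06). Rdh5, a retinol dehydrogenase best known from the eye, had the same sign of interaction (1.55, SE 0.17, adjusted p = 8.61e-05), with 93.4 to 113 with TNC and TNF, 67.5 to 93.9 with TNC, 71.6 to 93.8 with TNF and 177 to 189 in untreated cells.

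The alcohol dehydrogenases Adh1 and Adh7 had an interaction of the opposite sign, as Aldh1a3 had, while that of Adh5 was 0.00 (SE 0.07, adjusted p = 0.988). Adh1, which oxidises retinol among other alcohols, had 2983, 3063, 3020 and 1728 with TNC and TNF, 12009, 10972, 10645 and 11804 with TNC, 6561, 5155 and 5899 with TNF, and 9951, 10576 and 11609 in untreated cells. Cells given both factors were lowest and cells given TNF alone next. TNF lowered it by 2.11 with TNC (SE 0.17, adjusted p = 5.43e-06) and by 0.87 without (SE 0.19, adjusted p = 0.00402), an interaction of -1.24 (SE 0.25, adjusted p = 0.00562). Adh7, an alcohol dehydrogenase active on retinol, had 109 to 126 with TNC and TNF, 269 to 412 with TNC, 301 to 338 with TNF and 326 to 396 in untreated cells. TNF changed it by -1.53 with TNC (SE 0.12, adjusted p = 4.92e-06) and by -0.14 without (adjusted p = 0.473), an interaction of -1.39 (SE 0.18, adjusted p = 0.000303).

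Aldh1a7 had 8.81, 38.0, 34.6 and 2.47 with TNC and TNF, 67.6, 59.3, 65.8 and 67.0 with TNC, 101, 65.2 and 51.9 with TNF, and 609, 612 and 556 in untreated cells. Untreated cells stood above all others. TNC alone lowered it by 3.19 (SE 0.76, adjusted p = 0.00753) and TNF alone by 3.08 (SE 0.81, adjusted p = 0.0113), the direction of its copy Aldh1a1. Fabp5, which carries retinoic acid and fatty acids, fell with TNF by 1.79 without TNC (SE 0.10, adjusted p = 9.04e-08) and by 1.69 with it (SE 0.08, adjusted p = 2.81e-07). Lpl, the lipase that also frees retinyl esters, fell by 1.81 with TNF alone (SE 0.13, adjusted p = 6.52e-07), and its change with TNF in cells with TNC was -0.26 (adjusted p = 0.117). Tgm2, a transglutaminase induced by retinoic acid, rose with TNF alone by 2.44 (SE 0.18, adjusted p = 1.01e-06) and with TNC alone by 1.30 (SE 0.17, adjusted p = 0.000132), and fell with TNC in cells with TNF by 0.70 (SE 0.17, adjusted p = 0.00899). Ret, a receptor kinase gene responsive to retinoic acid, rose with TNC by 1.75 without TNF (SE 0.19, adjusted p = 3.58e-05) and by 1.16 with TNF (SE 0.19, adjusted p = 0.000914).

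**Figure D3:**
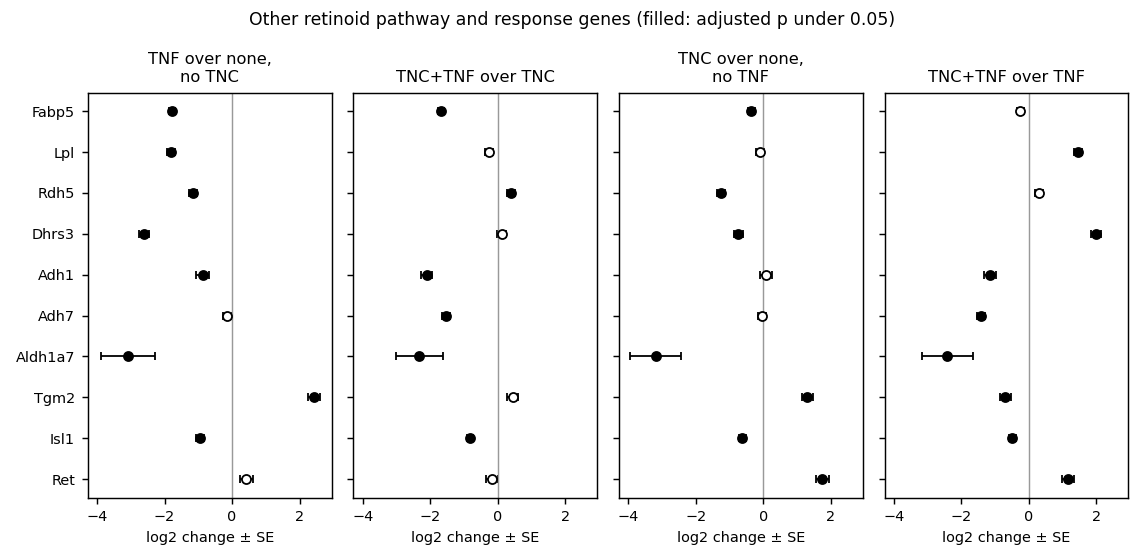
Log2 changes with bars of 1 SE of 10 further retinoid pathway or response genes in the 4 comparisons of cell groups; filled points passed an adjusted p of 0.05. Dhrs3 lies at -2.60 for TNF alone and at 1.99 for TNC among cells with TNF, while Aldh1a7 lies left of -2 in all 4 panels.

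In the aorta, Crabp2 was highest in the infrarenal Ca+AngII pools and Rbp4 was lowest there. Aldh1a2 and Aldh1a3 were higher in the Ca+AngII pool of all 4 pairs, and Rarb was lower in all 4. Aldh1a1 differed by less than 2-fold in each pair. On the highest-mean probe set of each gene, the 4 pairs of TNC-KO and WT pools differed by 2-fold in 1 member, Cyp26b1, on 1 pair. These are single pools, so a ratio may reflect the mice pooled as well as the condition. A gene was counted in a pair if it was at or above the median of all probe sets on at least 1 of the arrays, and called past 2-fold. By this rule a gene can enter a pair through its higher pool only. Crabp2 and Cyp26b1 entered every pair in which they passed 2-fold that way, so those calls lean on the rule. With the median required on both arrays, 64 of the 77 member ratios remained.

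Between Ca+AngII and control infrarenal pools, 2 members were higher and 2 lower of 7 counted in TNC-KO mice, where 11.1% of all genes were higher and 6.34% lower. In WT mice 2 were higher and 1 lower of 6 counted, where 10.6% were higher and 7.05% lower. With 32 added to each signal, Aldh1a2 (0.95) and Cyp26b1 (-0.95) of TNC-KO mice no longer passed 2-fold, which leaves 1 higher and 1 lower there. The median log2 ratio was 0.04 in TNC-KO and 0.15 in WT mice, against 0.07 and 0.00 over all genes. In the suprarenal segment 1 was higher and 0 lower of 7 in TNC-KO mice (3.59% and 1.55% of all genes) and 0 of 6 passed in WT mice (1.22% and 2.39%), with medians of 0.06 and 0.18, against -0.04 and 0.02 over all genes. The pools with adrenal transcripts enter the infrarenal TNC-KO and the suprarenal WT pairs, so the infrarenal WT and suprarenal TNC-KO ratios are those without them.

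Crabp2 was 452 and 344 in the infrarenal Ca+AngII pools of TNC-KO and WT mice, against 9.92 and 11.01 in their controls. The suprarenal values were 53.2 and 83.9 with Ca+AngII, against 9.46 and 20.05 in controls. Both treated infrarenal pools stood above the 6 other pools, and the control values lie in the background of the array. The infrarenal log2 ratios were 5.51 in TNC-KO and 4.97 in WT mice, and 3.53 and 3.13 with 32 added to each signal, and both genotypes were past 2-fold higher in 8.50% of all genes. The suprarenal ratios of 2.49 and 2.07 (1.04 and 1.16 with 32 added) were not counted, since all 4 pools were under the median. Crabp1 was 29.9 and 3.43 in infrarenal Ca+AngII pools of TNC-KO and WT mice, against 76.0 and 28.2 in controls, and 83.8 in both suprarenal Ca+AngII pools, against 147 and 97.9. It was at or above the median in 1 of the 8 pools.

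Rbp4 was among the brighter genes of the aorta, at the 94.2 to 98.3 percentile. It was 3015 and 2723 in the infrarenal Ca+AngII pools of TNC-KO and WT mice, against 7952 and 8144 in their controls. The suprarenal values were 5054 and 5295 with Ca+AngII, against 4258 and 5106 in controls. The treated infrarenal pools were the lowest of the 8 and the untreated infrarenal pools the highest. The infrarenal log2 ratios were -1.40 and -1.58, and both genotypes were past 2-fold lower in 4.06% of all genes, while the suprarenal ratios were 0.25 and 0.05. In the infrarenal pairs the summed signal of 11 fat cell markers was lower too, at 81511 and 67003 in infrarenal Ca+AngII pools, against 122330 and 122360 in controls. In the suprarenal pairs it was also lower, at 104000 and 113160 with Ca+AngII, against 114220 and 134790, while Rbp4 was slightly higher. Past 2-fold in the infrarenal pairs, 5 of these markers were lower in TNC-KO and 7 in WT mice, and Dio2 was higher in TNC-KO mice. All 11 were at or above the median in every pool but 1, which had 10. Their part in the Rbp4 ratio was not tested.

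**Figure D4:**
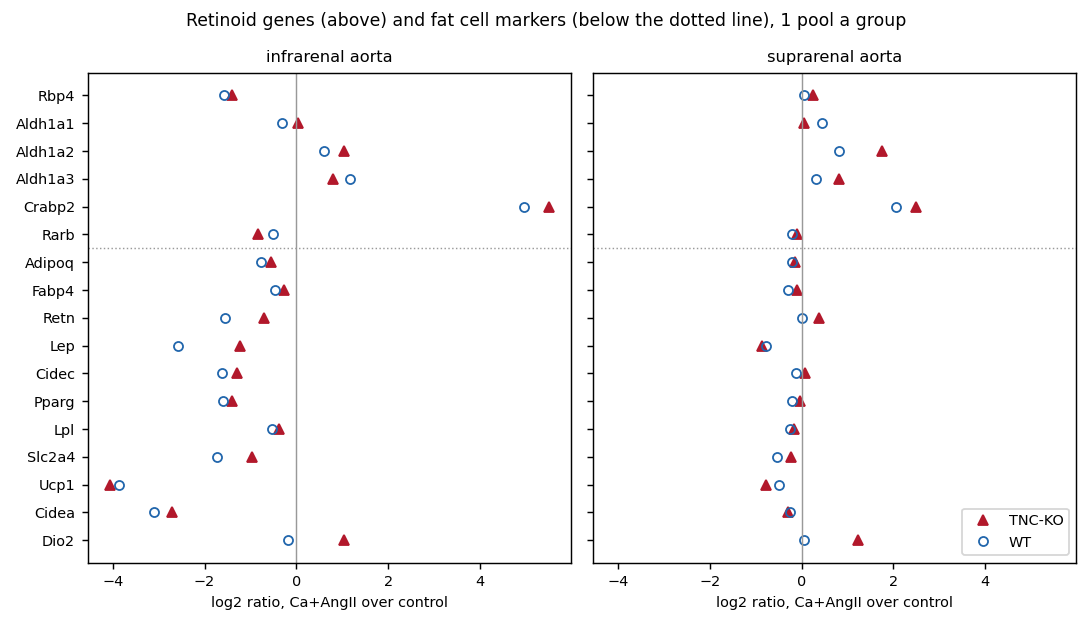
Log2 ratio of the Ca+AngII pool over the control pool for 6 retinoid genes (above the dotted line) and 11 fat cell markers (below it), infrarenal aorta left and suprarenal right; triangles are TNC-KO and circles WT, 1 pool a group and no error. In infrarenal aorta Rbp4 lies at -1.40 and -1.58 among the fat cell markers, and Crabp2 at 5.51 and 4.97.

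The synthesis genes differed among themselves in tissue. Aldh1a2 was 544 and 507 in infrarenal Ca+AngII pools of TNC-KO and WT mice, against 266 and 335 in controls, and 459 and 290 in suprarenal Ca+AngII pools, against 135 and 165. Within each segment both treated pools were above both controls, with log2 ratios of 1.03 and 0.60 infrarenal and 1.76 and 0.81 suprarenal. Aldh1a3 was 1077 and 1275 in infrarenal Ca+AngII pools, against 616 and 571 in controls, and 484 and 436 in suprarenal Ca+AngII pools, against 274 and 351. Its ratios were 0.81 and 1.16 infrarenal and 0.82 and 0.31 suprarenal. Of all genes, 16.8% had a higher value in the Ca+AngII pool of all 4 pairs. Aldh1a1 was 2476 and 2038 in infrarenal Ca+AngII pools, against 2404 and 2521 in controls, and 1803 and 1990 in suprarenal Ca+AngII pools, against 1729 and 1461, with ratios of -0.31 to 0.45.

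The summed signal of 8 fibroblast markers was higher in the Ca+AngII pool of each pair too. It was 113190 and 97116 in infrarenal Ca+AngII pools of TNC-KO and WT mice, against 78765 and 77351 in controls, and 63390 and 67191 in suprarenal Ca+AngII pools, against 50048 and 54876. Single markers went both ways, with log2 ratios of -0.25 to 1.61, and 2 of 8 were past 2-fold higher in TNC-KO and 1 in WT infrarenal pairs, and 0 in the suprarenal ones. The sum of macrophage markers was 68276 to 71326 in infrarenal Ca+AngII pools, against 19721 to 23243 in controls, and 29783 to 37688 in suprarenal Ca+AngII pools, against 24705 to 27462. The smooth muscle sum was 52427 to 59826 in infrarenal Ca+AngII pools, against 94061 to 94600. Their part in the ratios of Aldh1a2, Aldh1a3 and Crabp2 was not tested. Mesothelial sums in the suprarenal pools, where Aldh1a2 differed most, were 762 to 765 with Ca+AngII, against 680 to 758 in controls. The largest part of these sums is Gpm6a, at 317 to 407. Infrarenal sums were 979 in TNC-KO and 1022 in WT mice with Ca+AngII, against 2109 and 813 in controls. Wt1 was 134 and 183 in these Ca+AngII pools, against 42.7 and 28.2, while 3 other mesothelial markers were past 2-fold lower in TNC-KO mice. The part of mesothelial cells in these ratios was not tested.

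Rarb was 174 and 141 in infrarenal Ca+AngII pools of TNC-KO and WT mice, against 309 and 201 in controls, and 203 and 204 in suprarenal Ca+AngII pools, against 217 and 234. All 4 ratios were negative, from -0.83 to -0.09, none reached 2-fold, and 16.0% of all genes were lower in all 4 pairs. Cyp26b1 was 93.1 and 69.3 in infrarenal Ca+AngII pools, against 210 and 81.8 in controls, and 99.8 and 142 in suprarenal Ca+AngII pools, against 166 and 137. The infrarenal TNC-KO control pool was the highest of the 8 for both genes, and it is the pool with the most adrenal and mesothelial signal, whose part was not tested. The log2 ratio of Cyp26b1 was -1.18 in infrarenal TNC-KO tissue, a value that rests on that pool, and -0.24, 0.05 and -0.73 in the other pairs. Stra6 was under the median in every pool, at 9.30 to 91.4, highest in the infrarenal Ca+AngII pools (91.4 in TNC-KO and 76.5 in WT mice).

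**Figure D5:**
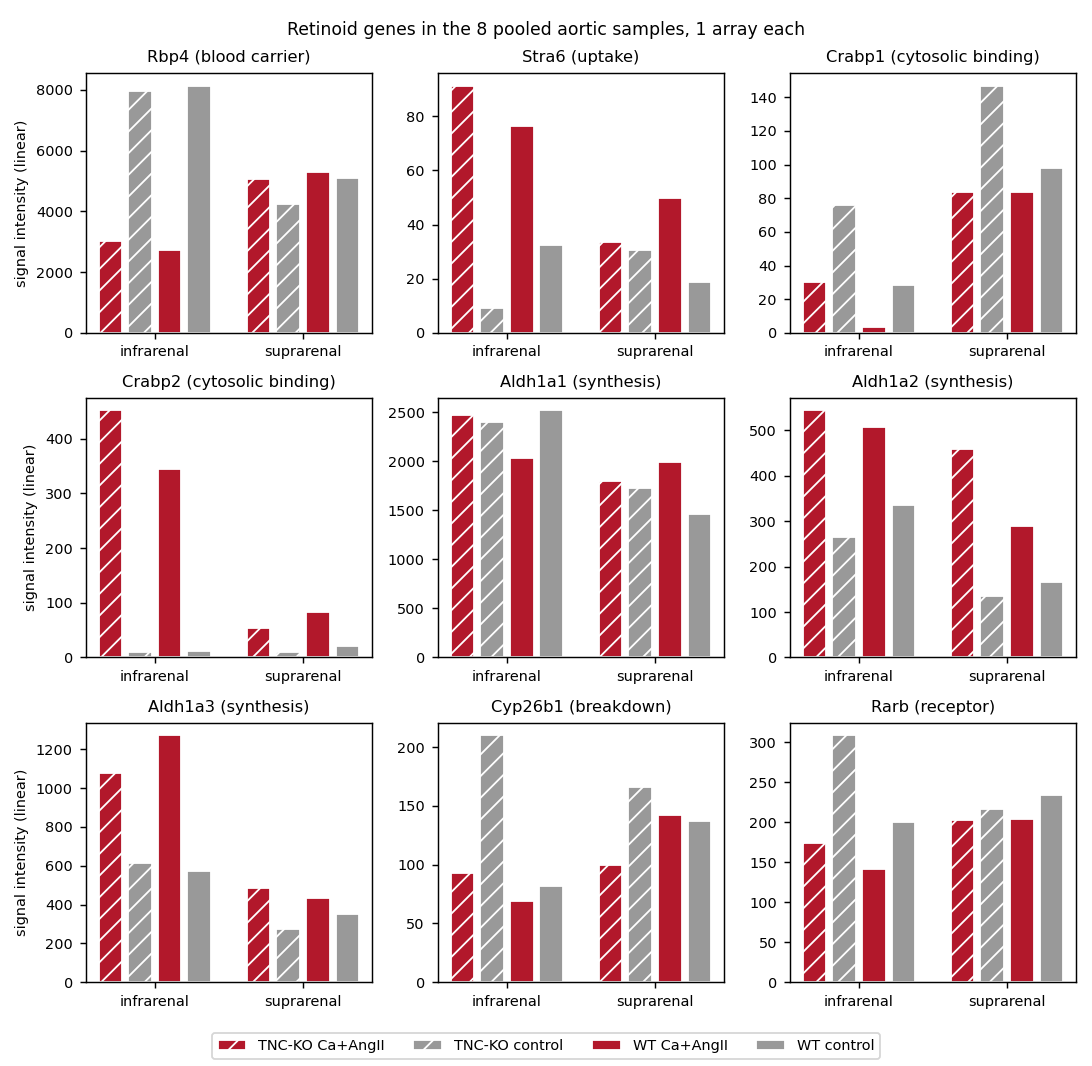
Signal of the 9 retinoid genes in the 8 aortic pools (linear axis from 0, each panel with its own range), 1 pool a bar with no error; red is Ca+AngII, grey is control, and hatched bars are TNC-KO. Crabp2 stands out in the infrarenal Ca+AngII pools (452 and 344) and Rbp4 is lowest there (3015 and 2723).

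Loss of Tnc went with few differences between pools. Among 6 or 7 members counted in each pair, TNC-KO and WT pools differed past 2-fold in 1, Cyp26b1 in infrarenal control tissue (log2 ratio 1.36), which again uses the pool with adrenal signal. In that pair 1.03% of all genes were higher and 0.671% lower. The other pairs had 0 members past 2-fold, where 0.574% (infrarenal Ca+AngII), 2.52% (suprarenal Ca+AngII) and 0.583% (suprarenal control) of all genes were higher and 0.599%, 0.336% and 1.28% lower. These counts use the highest-mean probe sets. The third probe set of Aldh1a3 was past 2-fold higher in the TNC-KO suprarenal Ca+AngII pool, at 176 against 52.6 in WT. The brightest had 484 and 436 in these 2 pools. Aldh1a2 was 459 in the TNC-KO suprarenal Ca+AngII pool, against 290 in the WT one (0.66), while in controls the order was the reverse (135 against 165, -0.29). Of these, the WT Ca+AngII pool carries the adrenal transcripts, and in the TNC-KO Ca+AngII pool 3 of 9 macrophage markers were past 2-fold higher (Cd14 at 5033, against 983, Itgam at 596, against 161, and Fcgr1 at 1004, against 421). Their part in the Aldh1a2 difference was not tested.

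Infrarenal pools held more Aldh1a3 than suprarenal pools in all 4 pairs. The log2 ratio was 1.15 in TNC-KO and 1.55 in WT mice with Ca+AngII, and 1.17 and 0.70 in controls. The third probe set gave -0.15 for the TNC-KO mice with Ca+AngII and 0.99 to 1.75 for the other pairs. Aldh1a1 ratios were 0.46 and 0.03 with Ca+AngII and 0.48 and 0.79 in controls, and those of Aldh1a2 were 0.25 and 0.81, and 0.98 and 1.02. Of all genes 21.9% were higher in the infrarenal pool of all 4 pairs. In controls 1 member was past 2-fold higher and 0 lower in each genotype, Aldh1a3 of 7 counted in TNC-KO mice (3.09% of all genes higher, 9.78% lower) and Aldh1a2 of 6 in WT mice (1.96% and 7.58%). The first uses the TNC-KO control pool with adrenal and mesothelial signal, and the second fell short of 2-fold with 32 added (0.90). With Ca+AngII, Crabp2 was also past 2-fold higher in infrarenal pools (3.09 in TNC-KO and 2.04 in WT mice), where 6.79% and 9.51% of all genes were. With Ca+AngII, 0 members were past 2-fold lower in TNC-KO mice (9.34% of all genes) and 1, Cyp26b1, in WT mice (-1.03; 11.2%). That call was lost with 32 added (-0.78) and uses the suprarenal WT pool with adrenal transcripts. Infrarenal sums of fibroblast markers were 77351 to 113190, against 50048 to 67191 in suprarenal pools. Isl1 and Ret, of the response genes, were lower in the infrarenal pool of all 4 pairs, with ratios of -4.06 to -2.39 and -2.74 to -1.45, along with the neuronal transcripts given above.

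Of the other pathway genes with Ca+AngII, 25 were counted in infrarenal pairs. In TNC-KO mice 3 were past 2-fold higher and 4 lower, where 11.1% of all genes were higher and 6.34% lower. In WT mice 2 were higher and 4 lower, where 10.6% were higher and 7.05% lower. Cyp1b1 was 6204 and 7028 in infrarenal Ca+AngII pools of TNC-KO and WT mice, against 2561 and 2548 in controls. Bco2 was 150 and 161, against 64.5 and 48.9, and both were past 2-fold higher in both genotypes. Adh1 was 2419 and 2342 in infrarenal Ca+AngII pools of TNC-KO and WT mice, against 5726 and 4949 in controls. Adh7 was 190 and 91.7, against 514 and 618, and Aldh1a7 was 1180 and 816, against 2898 and 2547. These 3 genes were thus past 2-fold lower in both genotypes. In the suprarenal segment their log2 ratios were between -0.42 and 0.44. Unlike Aldh1a7, Aldh1a1 had infrarenal ratios of 0.04 and -0.31.

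Between untreated cells and the suprarenal TNC-KO control pool, the nearest tissue to their source, levels differed. Rbp4 was 30.9 in cells (geometric mean of 3 arrays), against 4258 in the pool, Crabp1 was 7.04, against 147, and Rarb was 34.5, against 217. The cell values of these 3 genes lie in the background range, so no fold is given. Aldh1a2 was 19.4-fold higher in cells (2624 against 135), Cyp26b1 3.54-fold and Aldh1a1 3.40-fold higher. Cells and tissue differ in cell types and culture, which cannot be told apart here.

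The members' patterns over arrays were set beside those of the other genes above the signal filter (15533 in cells, or 15534 for Crabp1, which is below it, and 12275 in aorta) by Pearson correlation of log2 signal, as a description. Over the 14 cell arrays, which fall into 4 treatments, Aldh1a1 was most like Heph (r = 0.983), Cox20 and Gpc6. Cyp26b1 was most like Pdzk1ip1 (0.995), Smad6 and Zfp354c, and Aldh1a3 was most like Cyp24a1 (0.968), Fam107a and Oplah. The dim genes gave lower values, with Cck for Stra6 (0.917), Kctd15 for Crabp2 (0.891) and Pianp for Crabp1 (0.792). Over the 8 pools, Aldh1a2 was most like Lox (0.978), St3gal1 and Snx18, Aldh1a3 was most like Tspan11 (0.992), Folh1 and Lbp, and Crabp2 was most like Xpo7 (0.998), Lmo4 and Tigd5. Among members, the highest and lowest correlations over the 8 pools were 0.87 for Rarb with Cyp26b1, 0.86 for Aldh1a2 with Aldh1a3 and -0.81 for Crabp2 with Rbp4. These points share pools, segments and treatments.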

How the data were processed

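The values are linear signal intensity per probe set, made by the authors with Affymetrix Expression Console, per the submitters' processing notes. The sources used here give neither version nor algorithm. Deposited intensities had a mean of 499.8 to 499.9 on every array once the highest and lowest 2% were set aside, and ran from 0.037 to 39169. Of 45101 probe sets, 64 controls, 932 with several symbols and 9160 without one were left out. The rest stood for 18193 genes, named from the platform annotation. The number of arrays limits the precision. Cells were fitted on log2 intensity without pseudocount in limma 3.58.1 (R 4.3.3), 4 groups in one fit with 10 residual degrees of freedom, and the code was tested on simulated data. Same-number arrays were not correlated over all genes (19 pairs, r of -0.02 to 0.06 after group means were removed), so they were fitted as unpaired. That correlation cannot show whether a culture was split between treatments. Titles of the TNC group read ambiguously, so its treatment label was followed. Labelled times of 23 to 36 h, unlike the 24 h of the design text, were not used. The members and lists were chosen with earlier results of these data known. Values are given for all members, for list genes called at 2-fold or more in a cell comparison or of 1 sign and 2-fold in all 4 pairs of an aortic one, and for the genes most like members that range at least 4-fold. Aortic values of Cyp1b1 and Bco2 were added after seeing the data.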

Additional observations from a re-analysis of the deposited data

Results flagged for a closer look

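The interaction of TNF with TNC (the TNF change with TNC minus that without it) passed the limma test (adjusted p under 0.05) for Aldh1a3, at -1.25 on the log2 scale, and for Stra6, at 2.91. The Aldh1a3 call rests on its brightest probe set, since the interaction was not called on its dimmer ones. The Stra6 signals were 3.85 to 34.4, near the floor of the array. For Rbp4 the log2 ratio of Ca+AngII over control was negative in both infrarenal pairs and positive in both suprarenal pairs, and the means over the 2 genotypes differed by -1.64, infrarenal minus suprarenal. That difference was not tested. One array stood far from the others of its group: Crabp1 was 22.4 in replicate 4 of the cells with TNC and TNF, against 1.08 to 2.64 in the other 3. Its gap was 0.927 of the group's range, past the 95% limit of Dixon's test for 4 arrays. This was 1 of 18 groups looked at, and chance gives about 1 in 20.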

How the results depend on the processing

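Of 40 member changes in cells, the direction and the side of the threshold held for 39 with 32 added to each signal, 34 with arrays centred on their medians, 36 with quantile normalization, 38 with no filter on dim genes and 38 with a variance trend. With the replicate number of the titles as a replicate block they held for 37 of 40, and the counts of genes called were 5080, 3096, 4314, 3626 and 2560. Calls of Rbp4 for TNC alone and of Aldh1a3 and Cyp26b1 for TNC in cells with TNF were lost there (adjusted p = 0.0783, 0.0951 and 0.078). A block for each replicate number, set apart for cells with and without TNC, can fit only the TNF changes and the interaction. Of 24 member values 23 held in that fit and 1 call was lost, and 4754, 2620 and 2108 genes were called (TNF without TNC, TNF with TNC, interaction). A filter at the 50th percentile left 1 member with a called interaction, Aldh1a3, since Stra6 was no longer tested. The third probe set of Aldh1a3, added after seeing the data, reversed its change with TNC in cells with TNF (0.0496) and its infrarenal over suprarenal ratio in TNC-KO mice with Ca+AngII (-0.15). Leaving out 1 array at a time gave 4594 to 5507, 2634 to 3312, 3980 to 5070, 3310 to 4373 and 2357 to 2825 genes called, and 4 to 5, 4 to 5, 4 to 5, 4 to 7 and 2 to 3 members. The call of Aldh1a3 for TNF alone was lost without any 1 of the untreated arrays or of replicates 2 and 3 with TNF. Its call for TNC in cells with TNF was lost without any 1 of 10 arrays, all but TNF 3, TNC 1, TNC 2 and TNC with TNF 3, and that of Cyp26b1 without any 1 of 11, all but TNC 1, TNC 2 and TNC with TNF 1. The call of Rbp4 for TNC alone was lost without untreated replicate 2 or 3 or TNC replicate 2, 3 or 4. Over all genes, 46 were past 2-fold in all 4 pairs of Ca+AngII and control pools, 1 in those of TNC-KO and WT pools and 504 in those of infrarenal and suprarenal pools. A filter at the median on both arrays gave 29 and 241 for the first and last, a filter at the 30th percentile gave 3 for genotype, and leaving out the 2 pools with adrenal transcripts (added after seeing the data, with fewer pairs) gave 254 and 2 for treatment and genotype. Of 77 aortic ratios, 4 crossed 2-fold with 32 added, 2 with median centring and 1 with quantile normalization. Signal over background limits Stra6, Crabp1, Crabp2, Rbp4 and Rarb in cells.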
